A study of Mus musculus with 24 samples.

Results

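The 9 genes described here, Adamts1, Adamts2, Adamts4, Adamts5, Adamts7, Adamts9, Adamts12, Adamts15 and Adamts16, encode secreted proteases of the ADAMTS family. They are 9 of the 19 ADAMTS genes among the 48544 genes listed for each of 24 mouse muscle cell libraries. The 9 names were chosen from the family with measured values of these same libraries in view, and neither the comparison nor a threshold behind the choice is recorded. Every difference below is therefore a description of these libraries, and its adjusted p, which comes from a fit over all genes, is not independent evidence that the genes respond.

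ADAMTS proteins are zinc-dependent metalloproteases with thrombospondin repeats that bind them to the matrix around cells. They are made as inactive precursors, which proprotein convertases such as furin cut, and the tissue inhibitor TIMP3 blocks several of them. Some cut the large proteoglycans versican and aggrecan, which hold hyaluronan and water in the matrix, and others remove the amino-terminal propeptides of collagen precursors so that fibrils can form. In skeletal muscle, myoblasts are surrounded by a versican-rich matrix that is cleared as the cells fuse into myotubes.

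C2C12 is an established clonal line of mouse myoblasts, and all groups carry the wild-type genotype. Myoblasts were sampled on day 0 in growth medium with 10% fetal bovine serum, and myotubes on day 7 after a change to 2% serum. On day 7 the myotubes received either vehicle medium, for which the labels name 1% ethanol, or 100 µM dexamethasone, a synthetic glucocorticoid that makes muscle cells shrink, and were sampled 24 h (day 8) or 72 h (day 10) later. Each of the 6 groups had 4 libraries of poly(A) RNA, and the labels leave unsaid whether replicates were separate cultures. The p-values then rest only on the spread between libraries, which may be technical. A single clonal line in a dish has no vessels, nerves or other cells of a muscle, which limits what it models.

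The histidines that hold the catalytic zinc are shared by the whole family, and the coding stretch of this site shows how alike the members are. It lay in every one of the 9 coding sequences in the GENCODE M21 transcripts (build GRCm38) and crossed an exon boundary in each, for example from exon 3 to exon 4 of Adamts1. The 33 bases are printed 5′ to 3′ on the coding strand, with the 3 histidine codons in capitals, for 6 members. The first 4 cut versican or aggrecan: after 24 h of dexamethasone Adamts1, Adamts9 and Adamts15 rose and Adamts4 fell. The pair Adamts7 and Adamts12 follows.
Adamts1: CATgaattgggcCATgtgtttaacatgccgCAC
Adamts4: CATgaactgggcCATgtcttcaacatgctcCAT
Adamts9: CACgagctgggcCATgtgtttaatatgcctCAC
Adamts15: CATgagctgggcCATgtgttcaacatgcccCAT
Adamts7: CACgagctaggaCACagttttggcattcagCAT
Adamts12: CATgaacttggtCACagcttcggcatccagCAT
Adamts4 and Adamts15 were the most alike, with 30 of 33 bases identical. Adamts1 shared 28 bases with Adamts9, 28 with Adamts15 and 27 with Adamts4, and Adamts7 shared 26 with Adamts12. The least alike pairs were Adamts9 with Adamts12 and Adamts9 with Adamts16, at 17 bases each.

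Levels are given in TPM, a transcript's share of all transcripts scaled for its length, which can be compared between genes. Differences were tested with limma on the deposited log2 values, with genes called at an adjusted p under 0.05. These log2 values are compressed: across 12737 genes their differences had slopes between 0.62 and 0.69 on those of log2 TPM, so folds are given from mean TPM. The number of sequenced reads is unknown, and 12428 to 13030 genes per library reached 1 TPM. The median gene shifted on the TPM scale by -0.11 log2 units from day 0 to day 7, by 0.14 from vehicle 24 h to vehicle 72 h and by -0.12 for the change in dexamethasone response. It shifted by less than 0.1 in the other comparisons.

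All 6 genes listed as known glucocorticoid targets were higher with dexamethasone at both times, with Fkbp5 17.1-fold higher at 24 h and 9.46-fold at 72 h. The summed level of 8 muscle markers was 494 to 852 TPM at day 0 and 6087 TPM or more in every library labelled as myotubes. The macrophage sum reached at most 4.67 TPM and the endothelial sum at most 0.530 TPM. Both replicate 1 libraries at 72 h had the highest median of their group in the following measure. For each library, genes at least 20-fold lower with dexamethasone than with vehicle in the other 72 h libraries were picked, replicate 1 never being among those others. Replicates 2 to 4 were thus scored on genes picked with fewer libraries than replicate 1. The picked genes lay at a median of 7.19% of the vehicle level in dexamethasone replicate 1 (18 genes), and Adamts16 was the only member among those. In replicates 2 to 4 the medians were 0.484%, 4.28% and 0.468% (29, 72 and 25 genes), so replicate 3 lay nearer to replicate 1. Genes at least 20-fold higher with dexamethasone in the other libraries were picked in the same way. They lay at a median of 12.9% of the dexamethasone level in vehicle replicate 1 (20 genes). In vehicle replicates 2 to 4 the medians were 0.894%, 1.69% and 0.186% (52, 38 and 34 genes). Tests of the 9 members at 72 h are therefore given with and without both replicate 1 libraries. Other folds at 72 h are also given without them where the fold moved by over 1.5 times. Counts of ranges that do not overlap use all libraries. By the same measure the highest median at 24 h was 3.81%, in dexamethasone replicate 3 (18 genes).

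**Figure D1:**
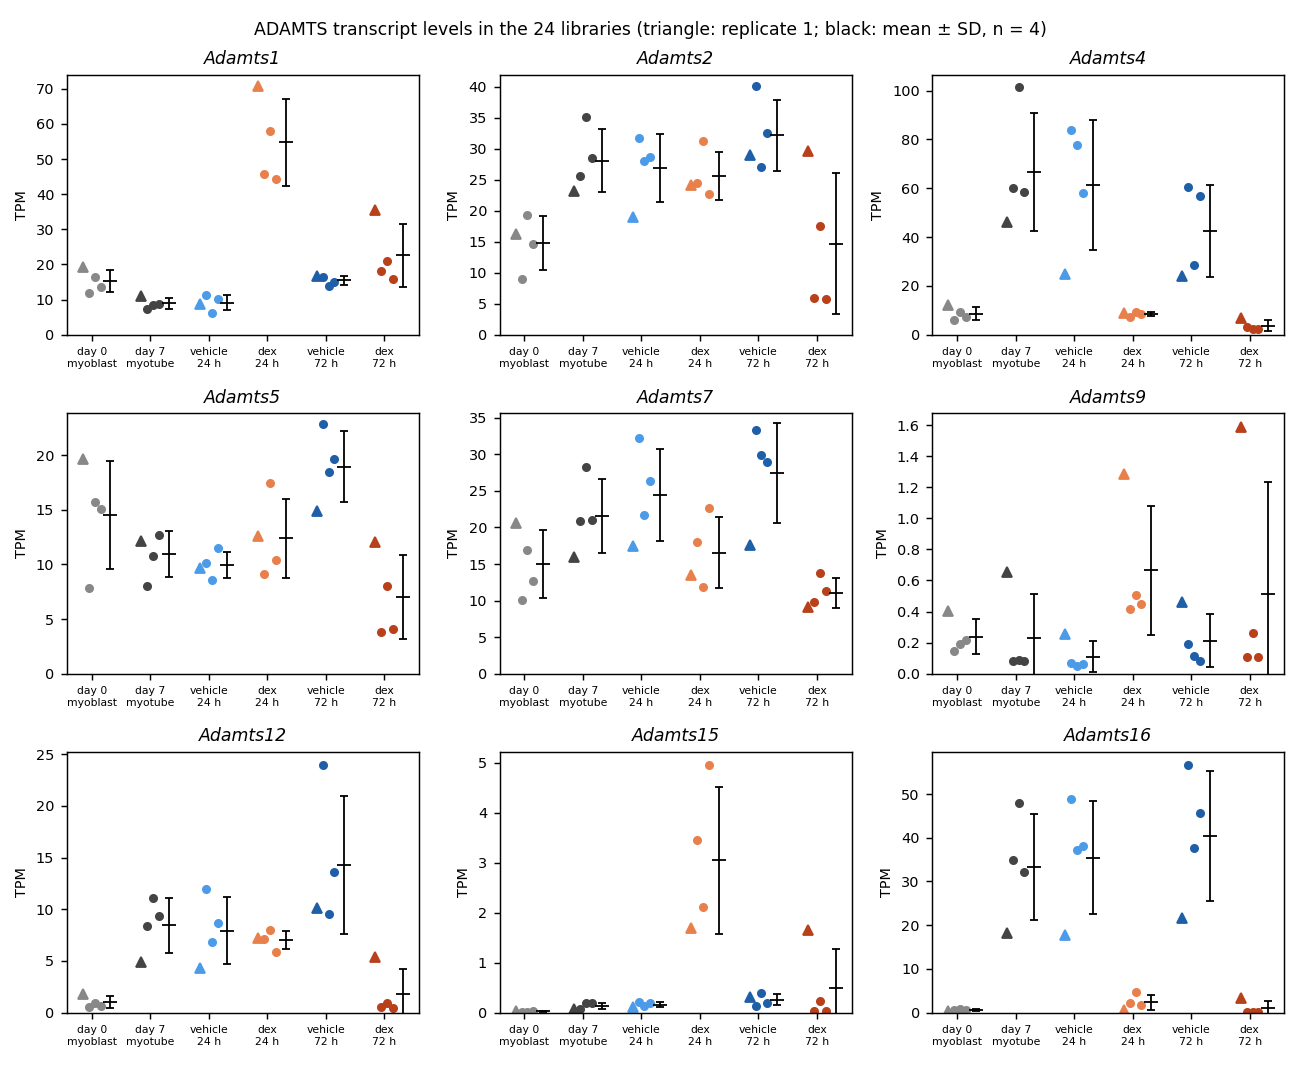
TPM of each of the 9 members in every library, 1 panel per gene, with the 6 groups on the x axis. Points are libraries, triangles mark replicate 1, and black marks give the mean ± SD of 4. Adamts1 peaks with dexamethasone at 24 h (mean 54.8 TPM), while Adamts4 and Adamts16 are high in the 3 groups of myotubes without dexamethasone and low in the others.

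Adamts1 cleaves versican and aggrecan and was the member that stood highest after a day of dexamethasone. It measured 19.2, 11.8, 16.6 and 13.7 TPM in day 0 replicates 1 to 4 and 11.0, 7.32, 8.59 and 8.85 TPM in day 7 myotubes. All 4 myotube libraries lay below all 4 myoblast libraries. Adamts1 fell 1.71-fold with differentiation (-0.45 ± 0.15 on the log2 scale, SE; limma adjusted p = 0.0122). After 24 h of vehicle it measured 8.89, 11.3, 6.32 and 10.2 TPM, and with dexamethasone 70.8, 45.9, 58.0 and 44.4 TPM. The lowest dexamethasone library was far above the highest vehicle library. Adamts1 rose 5.98-fold, from 9.16 ± 2.13 to 54.8 ± 12.3 TPM (SD, n = 4; limma adjusted p = 2.24e-08), and dexamethasone at 24 h gave its highest level of the 6 groups.

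After 72 h Adamts1 measured 16.6, 16.4, 14.0 and 14.9 TPM with vehicle and 35.6, 18.3, 20.9 and 15.8 TPM with dexamethasone. The ranges overlapped, and replicate 1 was the highest dexamethasone library. The 1.46-fold higher mean did not pass the test (log2 difference 0.35 ± 0.15, limma adjusted p = 0.0795), passed it with the replicate number as a block (adjusted p = 0.0229) and without dexamethasone replicate 4 (0.0383), and was 1.21-fold without both replicate 1 libraries (0.27). Between the 2 times the response shrank by 1.39 log2 units (limma adjusted p = 0.000271).

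Adamts4, a versican- and aggrecan-cutting enzyme often called aggrecanase-1, was the most abundant member in day 7 myotubes. It measured 12.3, 5.90, 9.14 and 7.47 TPM at day 0 and 46.1, 60.1, 102 and 58.5 TPM at day 7. No library of the 2 groups overlapped. Adamts4 rose 7.64-fold with differentiation, from 8.71 ± 2.76 to 66.6 ± 24.1 TPM (limma adjusted p = 1.75e-07). It measured 24.8, 83.9, 77.9 and 58.2 TPM after 24 h of vehicle and 9.13, 7.48, 9.53 and 8.40 TPM after 24 h of dexamethasone. Every dexamethasone library was below every vehicle library and within the range of the day 0 myoblasts. Adamts4 fell 7.08-fold (limma adjusted p = 4.82e-06).

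At 72 h Adamts4 measured 24.0, 60.4, 28.6 and 56.8 TPM with vehicle and 6.96, 3.25, 2.34 and 2.58 TPM with dexamethasone. The groups again did not overlap. It fell 11.2-fold (limma adjusted p = 9.44e-07), and 17.8-fold without both replicate 1 libraries (1.33e-07). The change in response between 24 h and 72 h was not called (-0.28 log2 units, adjusted p = 0.647). Dexamethasone at 72 h gave its lowest mean of the 6 groups, with every library below those of dexamethasone 24 h, while replicate 1 reached into the day 0 range.

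Adamts5, or aggrecanase-2, is a versican-cutting member that has been linked to the fusion of myoblasts. It measured 19.7, 7.80, 15.7 and 15.0 TPM at day 0 and 12.2, 8.02, 10.8 and 12.7 TPM at day 7, with overlapping ranges. The difference with differentiation was not called (-0.19 log2 units, limma adjusted p = 0.404). After 24 h it measured 9.64, 10.1, 8.56 and 11.5 TPM with vehicle and 12.6, 9.17, 17.4 and 10.4 TPM with dexamethasone. These ranges overlapped too, and the difference was not called (0.12 log2 units, adjusted p = 0.672).

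A dexamethasone difference in Adamts5 was called only at 72 h. At 72 h it measured 14.9, 22.8, 18.4 and 19.6 TPM with vehicle and 12.0, 3.82, 8.05 and 4.13 TPM with dexamethasone. All vehicle libraries lay above all dexamethasone libraries, of which replicate 1 was the highest. Adamts5 was 2.70-fold lower than with vehicle (limma adjusted p = 0.000262), and 3.81-fold lower without both replicate 1 libraries. From 24 h to 72 h its vehicle mean went from 9.96 to 19.0 TPM and its dexamethasone mean from 12.4 to 7.01 TPM. Both changes enter the difference at 72 h, and the dexamethasone 72 h range overlapped that of vehicle 24 h. Its response at 72 h was 1.17 log2 units below that at 24 h (limma adjusted p = 0.00699). Its 6 groups, ordered by mean, overlapped with each neighbour.

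Adamts9, which also cleaves versican, was listed at under 2 TPM in every library. Its replicate 1 library was the highest of 4 in all 6 groups. It measured 0.400, 0.147, 0.194 and 0.216 TPM at day 0 and 0.652, 0.0805, 0.0889 and 0.0845 TPM at day 7, and the difference was not called (limma adjusted p = 0.640). On day 8 it measured 0.258, 0.0699, 0.0511 and 0.0625 TPM with vehicle and 1.28, 0.417, 0.509 and 0.451 TPM with dexamethasone. The ranges did not overlap. Adamts9 rose by 1.70 ± 0.53 log2 units (SE, limma adjusted p = 0.0217), and the call was lost without dexamethasone replicate 1 (0.0751), vehicle replicate 3 (0.0684) or vehicle replicate 4 (0.0521), and on log2(TPM + 1) (0.0683). Its mean with vehicle was too low for a fold to be given.

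At 72 h Adamts9 measured 0.461, 0.190, 0.113 and 0.0841 TPM with vehicle and 1.59, 0.107, 0.264 and 0.105 TPM with dexamethasone. Replicate 1 carried the higher dexamethasone mean, and the ranges overlapped. The difference was not called (0.46 log2 units, limma adjusted p = 0.563). It changed sign with the libraries used: without dexamethasone replicate 1 it was -0.17, and without both replicate 1 libraries it was 0.16 (adjusted p = 0.831).

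Adamts15, another versican-cutting protease, stayed below 0.5 TPM in every library without dexamethasone. It measured 0.0329, 0.0118, 0.0186 and 0.0306 TPM at day 0 and 0.0741, 0.0733, 0.181 and 0.195 TPM at day 7. The ranges did not overlap, but the difference was not called (1.11 log2 units, limma adjusted p = 0.0674), and it was called when only these 2 groups entered the fit (0.000949). After 24 h it measured 0.103, 0.205, 0.131 and 0.196 TPM with vehicle and 1.69, 3.45, 2.11 and 4.95 TPM with dexamethasone. Every dexamethasone library was far above the vehicle libraries. Adamts15 rose by 2.98 ± 0.51 log2 units (SE, limma adjusted p = 0.000204), from a mean of 0.159 to one of 3.05 TPM.

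At 72 h Adamts15 measured 0.307, 0.137, 0.400 and 0.193 TPM with vehicle and 1.66, 0.0254, 0.232 and 0.0343 TPM with dexamethasone. Only replicate 1 was still above 1 TPM. The difference was not called (-0.27 log2 units, limma adjusted p = 0.738). Without both replicate 1 libraries Adamts15 was lower with dexamethasone, at 0.0971 against 0.243 TPM (adjusted p = 0.0456). Its response at 72 h was 3.25 log2 units below that at 24 h (limma adjusted p = 0.00521).

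Adamts2 removes the amino-terminal propeptides of fibrillar collagens. It measured 16.2, 9.07, 19.4 and 14.7 TPM at day 0 and 23.1, 25.6, 35.0 and 28.4 TPM at day 7, so that no myotube library reached down to a myoblast library. Adamts2 rose 1.89-fold with differentiation (limma adjusted p = 0.0102). On day 8 it measured 19.0, 31.8, 28.04 and 28.6 TPM with vehicle and 24.1, 24.5, 31.3 and 22.6 TPM with dexamethasone. The ranges overlapped and the difference was not called, with a 95% interval from -0.58 to 0.36 log2 units (limma adjusted p = 0.757).

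At 72 h Adamts2 measured 28.9, 40.1, 27.0 and 32.5 TPM with vehicle and 29.6, 5.94, 17.5 and 5.74 TPM with dexamethasone. Dexamethasone replicate 1 lay inside the vehicle range and the other 3 libraries below it. Adamts2 fell 2.18-fold (limma adjusted p = 0.00303), and 3.41-fold without both replicate 1 libraries (3.34e-05). The call was lost when only these 2 groups entered the fit (0.0593). The change in response from 24 h to 72 h was not called (adjusted p = 0.0967) and was called without both replicate 1 libraries (-1.16 log2 units, adjusted p = 0.00315).

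Adamts7 and Adamts12 are related members that cleave cartilage oligomeric matrix protein. Comp, which encodes that protein, stayed at group means of 0.0975 to 0.195 TPM. Adamts7 measured 20.6, 10.1, 16.9 and 12.6 TPM at day 0 and 16.0, 20.9, 28.3 and 21.1 TPM at day 7, with overlap. It rose 1.43-fold (limma adjusted p = 0.0122), and the call was lost on log2(TPM + 0.1) (0.0727), on log2(TPM + 1) (0.0746) and without day 0 replicate 2 (0.0512). After 24 h it measured 17.5, 32.2, 21.7 and 26.3 TPM with vehicle and 13.6, 18.0, 11.9 and 22.7 TPM with dexamethasone, again with overlap. Adamts7 fell 1.48-fold (limma adjusted p = 0.0196), a call lost on log2(TPM + 0.1) and log2(TPM + 1) (0.111 in each) and without dexamethasone replicate 1 (0.0560), dexamethasone replicate 3 (0.0683) or vehicle replicate 2 (0.0595).

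At 72 h Adamts7 measured 17.6, 33.4, 29.9 and 29.0 TPM with vehicle and 9.18, 9.83, 13.8 and 11.3 TPM with dexamethasone. The groups no longer overlapped. Adamts7 fell 2.49-fold (limma adjusted p = 8.28e-05), and 2.64-fold without both replicate 1 libraries.

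Adamts12 measured 1.82, 0.564, 0.901 and 0.615 TPM at day 0 and 4.86, 8.42, 11.1 and 9.32 TPM at day 7. All myotube libraries were above all myoblast libraries. Adamts12 rose 8.64-fold (limma adjusted p = 1.30e-05). On day 8 it measured 4.27, 12.0, 6.83 and 8.63 TPM with vehicle and 7.18, 7.12, 8.01 and 5.83 TPM with dexamethasone. The dexamethasone libraries lay inside the vehicle range, and the difference was not called (-0.14 log2 units, adjusted p = 0.796).

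At 72 h Adamts12 measured 10.1, 24.0, 9.52 and 13.6 TPM with vehicle and 5.40, 0.503, 0.904 and 0.433 TPM with dexamethasone. Replicates 2 to 4 with dexamethasone lay within or below the range of the day 0 myoblasts, and replicate 1 lay between them and the vehicle libraries. Adamts12 fell 7.90-fold (limma adjusted p = 1.76e-05), and 25.6-fold without both replicate 1 libraries (3.16e-08). Its response at 72 h was 2.23 log2 units below that at 24 h (limma adjusted p = 0.00393).

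Adamts16, a member for which fewer substrates are known, went from under 1 TPM to among the most abundant members as the cells differentiated. It measured 0.332, 0.476, 0.858 and 0.506 TPM at day 0 and 18.3, 35.0, 48.0 and 32.1 TPM at day 7. The lowest myotube library was far above the highest myoblast library. Adamts16 rose 61.4-fold, from 0.543 ± 0.224 to 33.3 ± 12.2 TPM (limma adjusted p = 2.17e-08). After 24 h it measured 17.7, 48.8, 37.2 and 38.1 TPM with vehicle and 0.650, 2.21, 4.77 and 1.64 TPM with dexamethasone. The groups did not overlap, and dexamethasone replicate 1 was the lowest. Adamts16 fell 15.3-fold (limma adjusted p = 8.26e-06).

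At 72 h Adamts16 measured 21.6, 56.7, 37.7 and 45.6 TPM with vehicle and 3.40, 0.148, 0.170 and 0.101 TPM with dexamethasone. Replicates 2 to 4 with dexamethasone lay below every day 0 library, and replicate 1 above all of them. Adamts16 fell 42.3-fold (limma adjusted p = 2.22e-07). Without both replicate 1 libraries the means were 0.140 and 46.7 TPM (adjusted p = 5.63e-10). The change in response was not called (-1.08 log2 units, adjusted p = 0.216) but was called without those libraries (-1.80, adjusted p = 0.00370).

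**Figure D2:**
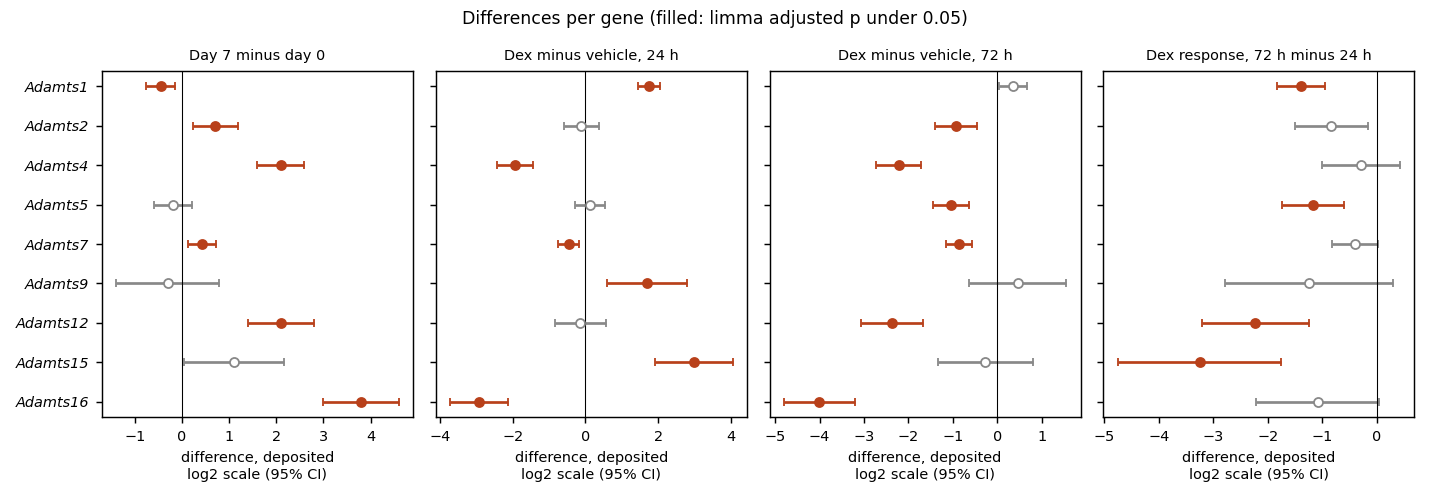
Log2 difference of each member with its 95% confidence interval, in 4 panels for differentiation, dexamethasone at 24 h, dexamethasone at 72 h and the change between these responses. Filled points have a limma adjusted p under 0.05. At 24 h the called members lie on both sides of 0, from -2.93 for Adamts16 to 2.98 for Adamts15, and at 72 h all 6 called members lie below it.

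With differentiation, 5 of 9 members rose (Adamts2, Adamts4, Adamts7, Adamts12 and Adamts16) and 1 fell (Adamts1), while 30.5% of the 16257 genes tested were called higher and 29.8% lower. The median difference of the 9 was 0.71 log2 units against 0.01 over all genes. TPM ranges did not overlap for 6 members, and for 51.2% of all genes. Since the members were chosen with results in view, nothing is read from these shares. Proliferation markers, from 5 genes, went from 809 ± 38.3 TPM at day 0 to 103 ± 50.2 at day 7, and fibroblast and tendon markers from 251 ± 48.1 to 678 ± 169 TPM. The part of either in the members' changes was not tested. In bulk RNA, fewer cells that express a gene and less RNA per cell cannot be told apart.

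With dexamethasone at 24 h, 3 of 9 members rose (Adamts1, Adamts9 and Adamts15) and 3 fell (Adamts4, Adamts7 and Adamts16), against 13.2% of all genes called higher and 12.2% lower. That is 2143 genes higher and 1991 lower, and the split was 2132 and 1160 of 15250 genes on log2(TPM + 0.1). The median of the 9 was -0.11 log2 units. Ranges did not overlap for 5 members and for 22.3% of all genes. Dexamethasone and vehicle libraries had summed fibroblast and tendon markers of 353 to 575 and 498 to 932 TPM. Of the 7 markers in that list, 5 were tested, with 1 higher and 2 lower. The replicate block raised the lower ones to 4, Cd34 and Mfap5 being added. Over all 24 libraries Scx, a tendon transcription factor, was at 107 to 307 TPM, Mfap5 at 6.91 to 609, Cd34 at 6.01 to 122, Pdgfra at 2.76 to 27.5 and Dpt at 0 to 4.93 TPM. Thy1 and Tnmd reached at most 0.321 and 0.288 TPM and were listed at 0 in 9 libraries each. Their part in the result was not tested.

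At 72 h, 0 of 9 members were called higher and 6 fell: Adamts2, Adamts4, Adamts5, Adamts7, Adamts12 and Adamts16. Of all genes, 15.2% were called higher and 15.2% lower. With the replicate block Adamts1 was called higher (limma adjusted p = 0.0229), as were 2709 of all 16257 genes tested. Without both replicate 1 libraries 7 members were lower, Adamts15 being the seventh, against 15.7% of all genes. The median of the members was -0.94 log2 units, and -1.27 without those libraries. Ranges did not overlap for 5 members and for 23.1% of all genes. Fibroblast and tendon markers summed to 214 to 264 TPM with dexamethasone and 412 to 744 with vehicle, with 0 higher and 3 lower of 5 tested. Proliferation markers summed to 81.3 to 292 and 10.2 to 39.7 TPM, with 5 of 5 called higher with dexamethasone. The part of these shifts in the members' changes was not tested.

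The response at 72 h was lower than that at 24 h for 4 of 9 members (Adamts1, Adamts5, Adamts12 and Adamts15) and higher for none by the limma test, against 5.77% of all genes called lower and 5.56% higher. Without both replicate 1 libraries it was lower for 6 members, with Adamts2 and Adamts16 added, against 8.71% of all genes. On log2(TPM + 0.1) the split over all genes was 599 higher and 1057 lower, against 904 and 938. For Adamts9 the change was not called (-1.24 log2 units, adjusted p = 0.308), except with the replicate block (0.0238) and without dexamethasone 72 h replicate 1 (0.0439). For Adamts7 it was -0.40 (adjusted p = 0.216).

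The vehicle cultures show how the members moved without the drug. From day 7 to vehicle 24 h, limma called 0 of 9 members (0 also at an unadjusted p under 0.05 and on log2(TPM + 0.1)), against 0.209% of all genes, and ranges did not overlap for 0 members and for 7.49% of genes. From vehicle 24 h to vehicle 72 h it again called 0 members (2 at an unadjusted p under 0.05, 0 on log2(TPM + 0.1) and 0 without both replicate 1 libraries), against 4.36% of genes, and ranges did not overlap for 2 members and for 13.2% of genes. Those members were Adamts1, with means of 9.16 and 15.5 TPM (limma adjusted p = 0.0844, and 0.0369 with the replicate block), and Adamts5, with means of 9.96 and 19.0 TPM (0.0872). The 434 genes higher and 275 lower over all genes became 219 and 51 on log2(TPM + 0.1). The comparisons share groups of libraries, so a member's values in them are not independent of each other.

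**Figure D3:**
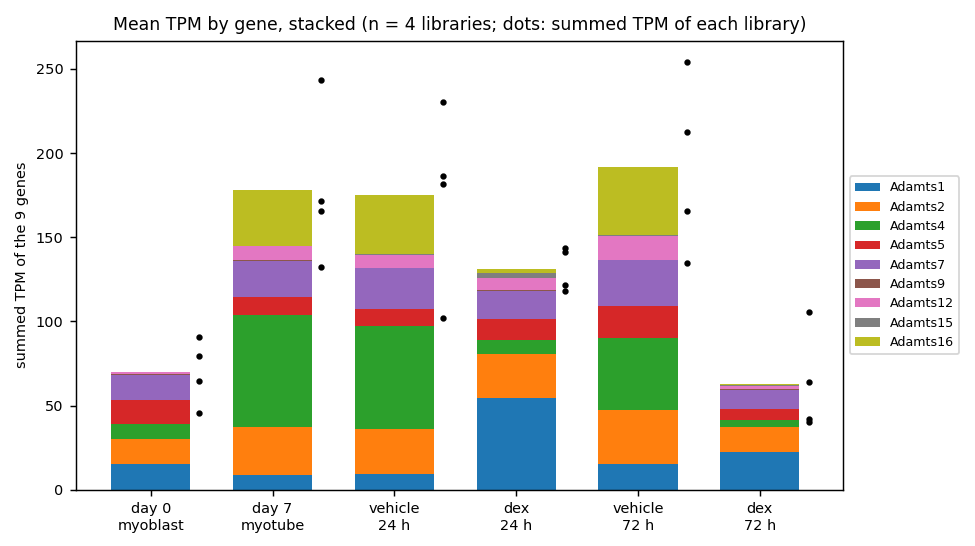
Mean TPM of the 9 members stacked by gene in each of the 6 groups, with dots for the summed TPM of each library. The stack is highest in vehicle 72 h (192 TPM) and lowest in dexamethasone 72 h (62.9 TPM), where the replicate 1 library sits above the other 3.

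The summed transcript level of the 9 genes was 70.2 ± 19.4 TPM in myoblasts and 178 ± 46.9 TPM in day 7 myotubes (SD, n = 4). It was 175 ± 53.4 TPM with vehicle and 131 ± 13.1 TPM with dexamethasone at 24 h, and these ranges overlapped. At 72 h it was 192 ± 52.5 and 62.9 ± 30.4 TPM, with dexamethasone replicate 1 at 105 TPM and the other 3 libraries at 40.2 to 64.2. The genes that made up the sum differed between groups. Adamts4 made up 36.8% of it in day 7 myotubes but 6.59% with dexamethasone at 24 h. Adamts1 made up 5.64% of it with vehicle and 41.5% with dexamethasone at 24 h. Adamts16 made up 19.8% and 1.75% of it in the same groups.

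Ordered by mean, the groups of most members formed a few blocks of overlapping ranges. For Adamts4 and Adamts16 the 3 drug-free myotube groups overlapped among neighbours and stood clear of the rest. For Adamts12 these 3 groups and dexamethasone 24 h overlapped among neighbours, with lower means for dexamethasone 72 h and day 0. Adamts1 and Adamts15 had dexamethasone 24 h alone at the top. For Adamts5, Adamts7 and Adamts9 every neighbouring pair of groups overlapped.

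The Adamts1 promoter is printed because, among the members in the reference promoter table, it held the only motif match. This RefSeq sequence (build GRCm38.p6, chr16:85803064-85803363, minus strand, 250 bases before to 50 after the start) has its TATAAA match in capitals.
Adamts1 promoter: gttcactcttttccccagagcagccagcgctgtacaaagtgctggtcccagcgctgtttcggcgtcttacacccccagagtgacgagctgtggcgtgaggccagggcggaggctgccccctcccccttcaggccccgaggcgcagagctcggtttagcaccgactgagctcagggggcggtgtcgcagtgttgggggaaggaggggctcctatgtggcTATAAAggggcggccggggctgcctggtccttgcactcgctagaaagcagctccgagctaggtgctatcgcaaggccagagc
The table held 4 of the 9 members (Adamts1, Adamts2, Adamts9 and Adamts12), and both strands were searched. TATAAA, the TATA box core, was in the Adamts1 promoter and in 13.6% of the 32851 promoters of this length. None of the 4 held AGAACA, 1 arm of the glucocorticoid response element (19.0% of all promoters), the full palindromic element that contains it (0.00913%), the AP-1 site TGANTCA (7.81%) or the NF-kappaB site (1.63%). A missing match says only that these letters are not in this window.

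Of the 10 other ADAMTS genes, 7 were tested, and 4 reached a group mean of 1 TPM. With differentiation 5 were called higher and 0 lower, or 1 lower with the replicate block (Adamts10, adjusted p = 0.0208). Adamts14, a procollagen propeptidase like Adamts2, reached its highest mean, 14.4 TPM, at day 7 (1.64-fold higher than at day 0, limma adjusted p = 0.0003), and Adamts6 and Adamts13, which cuts von Willebrand factor, were also higher. Adamts8 and Adamts17 were higher too, at means of 0.0898 and 0.545 TPM. At 24 h of dexamethasone only Adamts6 was called among them, 1.71-fold lower (adjusted p = 0.00604). At 72 h Adamts13 was 1.45-fold higher (0.0128), while Adamts6 (2.25-fold), Adamts10 (1.94-fold), Adamts8 and Adamts17 were lower, which became 5 lower without both replicate 1 libraries. Limma called 0 changes in response between the 2 times for these 7 genes, and 1 higher and 1 lower without those libraries.

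**Figure D4:**
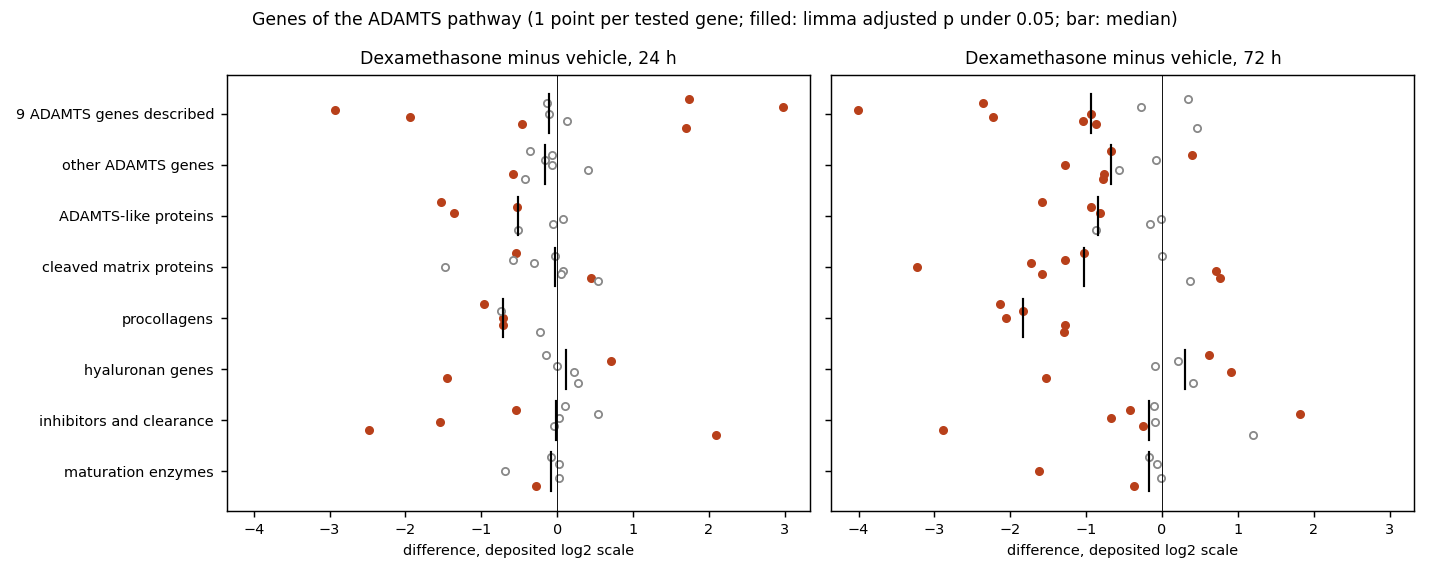
Log2 difference of each tested gene under dexamethasone at 24 h and at 72 h, grouped by list, with a bar at the median of each list. The 5 procollagen genes all lie below 0 at 72 h (median -1.83), and the inhibitors spread from far below 0, where Timp3 lies, to above it.

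Among the inhibitors and clearance receptors, Timp3, the main inhibitor of ADAMTS proteases, fell with dexamethasone from a mean of 170 to 12.2 TPM at 24 h (13.9-fold, limma adjusted p = 1.53e-06). At 72 h its means were 366 TPM with vehicle and 20.1 TPM with dexamethasone, both above those at 24 h. Timp3 was then 18.3-fold lower with dexamethasone, and 40.9-fold lower without both replicate 1 libraries. With differentiation it had risen 2.01-fold. Timp1, a broad inhibitor of metalloproteases, fell 4.70-fold at 24 h (adjusted p = 3.14e-09) and was not called at 72 h (adjusted p = 0.566), and Lrp1, the receptor that takes up several ADAMTS proteins, was 1.63-fold and 1.54-fold lower. Of the 8 genes of this list, 3 were higher and 0 lower with differentiation, 1 higher and 3 lower at 24 h, and 1 higher and 4 lower at 72 h. The medians were 0.46, -0.01 and -0.18 log2 units, the last -0.23 without both replicate 1 libraries. With the replicate block Timp4 was also called higher at 72 h (adjusted p = 0.0447). Reck and Timp2 were lower at 72 h, by 1.97-fold and 1.31-fold. The genes called higher were scarce: Timp4 at 24 h, at means of 0.505 against 0.0417 TPM, and Pzp at 72 h, at 0.248 against 0.0151 TPM.

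Of 13 matrix proteins that ADAMTS or related proteases cleave, 9 were tested, with 3 higher and 1 lower with differentiation, 1 and 1 at 24 h, and 2 and 5 at 72 h (medians 0.07, -0.03 and -1.02, the last -1.25 without both replicate 1 libraries). With the replicate block the counts at 24 h were 2 higher and 3 lower, with Vcan, Dcn and Lum added. The response differed between 24 h and 72 h for 2 of the 9, with 1 higher and 1 lower. Vcan, which encodes versican, was not called in any of these (limma adjusted p = 0.648, 0.0677 and 0.202), and at 24 h its means were 25.4 TPM with vehicle and 46.7 with dexamethasone (adjusted p = 0.0320 with the replicate block). Dcn, the small proteoglycan decorin, rose 5.07-fold with differentiation and fell 3.36-fold at 72 h. Nid2, a basement membrane nidogen, fell 4.25-fold and Fmod, or fibromodulin, fell 3.71-fold, and these were 8.94-fold and 12.9-fold without both replicate 1 libraries.

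Of 6 genes for collagens whose amino ends are cut, 5 were tested. With differentiation 2 rose (Col3a1 and Col5a1), at 24 h of dexamethasone 3 fell (Col1a1, Col3a1 and Col5a1), and at 72 h all 5 fell, with medians of 0.63, -0.72 and -1.83 log2 units, the last -2.23 without both replicate 1 libraries. With the replicate block Col1a1 also rose with differentiation (adjusted p = 0.0409) and Col1a2 also fell at 24 h (0.0269). On log2(TPM + 0.1) only 1 rose with differentiation and 1 fell at 24 h. Col1a1, the main chain of type I collagen, was 2.33-fold lower at 24 h (limma adjusted p = 0.0421) and 6.68-fold lower at 72 h, or 23.5-fold without both replicate 1 libraries. Col3a1 was 1.93-fold and 6.70-fold lower, or 14.6-fold at 72 h without them.

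Hyaluronan forms aggregates with versican and aggrecan. Of its 7 synthase, link protein and receptor genes 6 were tested, with 2 higher and 2 lower with differentiation, 1 and 1 at 24 h, and 2 and 1 at 72 h (medians 0.13, 0.11 and 0.31, the last 0.34 without both replicate 1 libraries). Has2, a hyaluronan synthase, rose 2.75-fold with differentiation and was 3.98-fold lower at 24 h and 4.97-fold lower at 72 h, or 7.54-fold without both replicate 1 libraries. Cd44, the hyaluronan receptor, fell 4.14-fold with differentiation and was 1.85-fold higher at 72 h.

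Among 6 maturation genes, 5 were tested, with 1 higher and 1 lower with differentiation, 0 and 1 at 24 h, and 0 and 2 at 72 h (medians -0.07, -0.08 and -0.17, the last -0.22 without both replicate 1 libraries). Furin, the convertase that activates many ADAMTS precursors, was not called in any of the 3 comparisons (limma adjusted p = 0.425, 0.827 and 0.409). Pcsk6, another convertase, rose 5.36-fold with differentiation and fell 5.26-fold at 72 h, or 9.38-fold without both replicate 1 libraries.

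ADAMTS-like proteins resemble the family but lack the protease part. Of 7 genes 6 were tested, with 3 higher and 1 lower with differentiation, 0 and 3 at 24 h, and 0 and 3 at 72 h (medians 0.38, -0.52 and -0.84, the last -0.91 without both replicate 1 libraries). With the replicate block Adamtsl4 was also lower with differentiation (adjusted p = 0.0373) and Thsd4 at 72 h (0.0148). Adamtsl1 rose 5.69-fold with differentiation and fell 4.41-fold and 5.32-fold under dexamethasone. Adamtsl2 rose from a mean of 0.144 to one of 18.8 TPM with differentiation.

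The genes whose log2 values tracked each member most closely over the 24 libraries are a description, because the points share the 6 groups. Adamts16 had the closest companion of any member, Cd200 (Pearson r = 0.985, 24 libraries), followed by Igfbp4 (0.977). For Adamts12 it was Grb14 (0.975), for Adamts4 5730559C18Rik (0.968), for Adamts2 C1ra (0.965), for Adamts15 Mettl7a1 (0.956) and for Adamts1 Fzd5 (0.953). Adamts7 (Adgrg1, 0.906), Adamts9 (Dpyd, 0.902) and Adamts5 (Efemp1, 0.898) had looser ones. Among the members themselves, Adamts4 and Adamts16 were most alike (0.942), then Adamts2 and Adamts12 (0.908), while Adamts1 and Adamts4 ran opposite (-0.59).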

How the data were processed

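Libraries were made with a stranded poly(A) mRNA kit, per the labels' protocols. The authors deposited 2 gene tables, one of log2 normalised values, from -2.33 to 20.06, whose normalisation is not given in the sources used here, and one of TPM, summing to 1000000 per library. Per the submitters' processing notes, Salmon, DESeq, kallisto 0.51.1 and GRCm39 were used, with no role given. The tables were joined by Ensembl ID (48544 genes), 1 row of the TPM table by symbol.

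The log2 values were fitted with limma 3.58.1 in R 4.3.3 (trend, 1 mean per group, all 24 libraries), over 16257 genes with 2 to the power of the value at 10 or more in at least 4 libraries. All 9 members reached this floor in every library. The floor is on the compressed log2 values, so reaching it is not evidence of detection: Adamts15 did so in day 0 replicate 2, at 0.0118 TPM. P-values are two-sided with Benjamini-Hochberg adjustment over all genes tested. Folds are ratios of mean TPM where the lower mean was at least 0.5 TPM. The script was tested on simulated data. Read depth is unknown, and no interval for it can be given.

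The members and gene lists were chosen with earlier results of these data known. All members are named. From each other list the text takes some of the called genes with large folds and some genes listed by role, such as Vcan and Furin. The called gene with the largest fold is not always named. Among those left out were Nid1, Has1 and Acta1 with differentiation and Klf15, Sdc4 and Pofut2 at 24 h. Some genes of low TPM and Comp were named after their values were seen. Each member's 3 most correlated genes were computed.

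Same-numbered libraries tended to deviate together. Correlations were 0.14 to 0.21 for differentiation, 0.20 to 0.39 for dexamethasone at 24 h and 0.12 to 0.34 at 72 h. Dexamethasone 72 h replicate 2 tracked another number more closely (0.16 against 0.12). The main fit left the number out, so its p-values ignore any pairing, and the replicate block is given as an alternative. The vehicle comparisons were mixed. From day 7 to vehicle 24 h the correlations of replicates 1 to 4 were 0.49, 0.13, -0.014 and 0.14. From vehicle 24 h to 72 h they were 0.56, 0.24, -0.25 and -0.0045. Replicate 1 deviated together most, and whether the number is a pairing there is not known, which also limits the replicate block. Alternatives were log2(TPM + 0.1) and log2(TPM + 1) over 15250 genes with 0.5 TPM in 4 libraries, no filter (30356 genes), quantile normalisation, a replicate block, only the groups compared, each library left out, and both replicate 1 libraries at 72 h left out. The last on log2(TPM + 0.1) was added after seeing the data.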

Additional observations from a re-analysis of the deposited data

Results flagged for a closer look

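In 54 groups of 4 libraries (9 members in 6 groups), 7 had a library far from the other 3, by Dixon's ratio on TPM. Chance gives about 1 group in 20 only where values are normally distributed. TPM need not be, and the ratio was not taken on the log2 values, so no excess over chance is claimed. All 7 were replicate 1. For Adamts9 these were day 7 (0.652 TPM), vehicle 24 h (0.258), dexamethasone 24 h (1.28) and dexamethasone 72 h (1.59). In dexamethasone 72 h replicate 1 they were also Adamts12 (5.40 TPM), Adamts15 (1.66) and Adamts16 (3.40). In that library, genes at least 20-fold lower with dexamethasone elsewhere at 72 h lay at a median of 7.19% of the vehicle level. Adamts16 was itself among those genes, so this median is not separate from its value. The part of this shift in the 4 values was not tested.

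The dexamethasone responses at 24 h and 72 h differed, by a limma interaction contrast, for Adamts1 (-1.39 log2 units), Adamts5 (-1.17), Adamts12 (-2.23) and Adamts15 (-3.25). Adamts1 was higher with dexamethasone in 4 of 4 numbered pairs at both times. At 24 h its ranges did not overlap, so any pairing gives 4 of 4.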

How the results depend on the processing

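The alternatives gave 882 results, 1 for each member, comparison and alternative. They come from far fewer fits, which share most of their libraries, so they are not independent checks. Of the calls, 347 stayed, 13 were lost and 0 changed direction. Of the differences not called, 481 stayed so, 14 passed the threshold and 27 changed sign. On log2(TPM + 1) Adamts15 with dexamethasone at 72 h was 0.12, and after quantile normalisation Adamts7 from vehicle 24 h to 72 h was -0.014.

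Leaving out 1 library at a time moved some uncalled log2 differences across 0. With dexamethasone at 72 h Adamts9 ranged from -0.17 to 0.78 and Adamts15 from -1.06 to 0.20, and at 24 h Adamts5 from -0.0049 to 0.21 and Adamts12 from -0.31 to 0.00078. From vehicle 24 h to 72 h Adamts7 ranged from -0.062 to 0.15 and Adamts16 from -0.16 to 0.24. From day 7 to vehicle 24 h the ranges were -0.016 to 0.12 for Adamts1, -0.089 to 0.058 for Adamts2, -0.26 to 0.14 for Adamts4, -0.74 to 0.069 for Adamts9, -0.24 to 0.099 for Adamts12 and -0.12 to 0.29 for Adamts16. The members with a change in dexamethasone response numbered 4 to 7, with 7 without dexamethasone 72 h replicate 1.

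Over all genes, the 709 calls from vehicle 24 h to 72 h became 270 on log2(TPM + 0.1), 264 on log2(TPM + 1), 94 with no filter, 4 with only the groups compared, 1067 with the replicate block and 380 without both replicate 1 libraries. They became 0 without those libraries on log2(TPM + 0.1), and 2 to 1751 with 1 library left out. After quantile normalisation 314 were higher and 321 lower. The 34 calls from day 7 to vehicle 24 h became 4 on log2(TPM + 0.1), 5 on log2(TPM + 1), 4 with no filter, 0 with only the groups compared, 109 with the replicate block and 0 to 328 with 1 library left out. With 1 library left out, the 4134 calls with dexamethasone at 24 h ranged from 2706, without dexamethasone replicate 4, to 4358, and were 2741 without vehicle replicate 3. The block also called 1 member from vehicle 24 h to 72 h, Adamts1, and those given in the report. The cause of these shifts was not tested, and unknown read depth limits what can be said of the members under 1 TPM.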

Other observations

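By gene order in RefSeq (GRCm38.p6), Adamts1 and Adamts5 are neighbouring protein-coding genes on chromosome 16, and Adamts15 and Adamts8 on chromosome 9. After 24 h of dexamethasone Adamts1 rose 5.98-fold (limma adjusted p = 2.24e-08) while the difference for Adamts5 was not called (0.12 log2 units, 95% interval -0.28 to 0.52, adjusted p = 0.672). Adamts15 rose from a mean of 0.159 to one of 3.05 TPM, while Adamts8 had means of 0.0761 TPM with vehicle and 0.0431 TPM with dexamethasone (adjusted p = 0.124). The differences between neighbours were not tested.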
